A study of Mus musculus with 8 samples.

Results

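The integrin subunits of intestinal organoids were followed from control cultures to cultures treated with RANKL, the ligand of the receptor RANK. The members were 10 integrin genes taken by symbol from the 54532 genes of the count table, namely Itga2, Itga3, Itga6, Itgav, Itgb1, Itgb4, Itgb5, Itgb6, Itgb7 and Itgb8. The rule that names them uses no measured value, but they were chosen with earlier results of these data known. Of these, 8 passed the filter on low counts and were tested, Itgb6 only through the RANKL-treated libraries, and Itgb7 and Itgb8 did not pass. The transcripts of Itgav and Itgb6, which encode the chains of the αvβ6 integrin, were 3.04-fold and 3.18-fold higher in RANKL-treated organoids, those of Itga6 and Itga3, the α chains of the laminin receptors, were lower, Itga3 less stably so, and the common partner chain Itgb1 did not pass the test.

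Integrins are receptors that anchor cells to the matrix around them or to other cells. Each is a dimer of an α and a β chain, and the pair decides what is bound: α3β1, α6β1 and α6β4 bind laminins, α2β1 binds collagen, and the αv dimers bind proteins with an RGD motif. In the gut the laminin receptors hold epithelial cells on the basement membrane, α6β4 as part of the hemidesmosome, a junction that ties the membrane to keratin filaments. The dimers αvβ6 and αvβ8 are known above all as activators of latent TGF-β, and β7 is the chain that leukocytes use to home to and stay in the gut wall.

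The organoids were mouse small intestinal epithelium grown from crypts in Matrigel, a laminin-rich basement membrane gel, in medium with EGF, NOGGIN and R-spondin, and 3′ mRNA sequencing covered 4 control and 4 RANKL-treated libraries. All libraries carry the tissue label of intestinal organoids and no genetic change is labelled; the dose and duration of RANKL, and whether the libraries came from separate cultures or animals, are not given in the sources used here, so p-values measure the spread between libraries, which may be technical. Organoids are grown without stroma or blood supply, and the laminin of the gel is present whatever the cells transcribe. Total counts reached 7807298 per library, the control median being 3911808 and the RANKL median 1613410, and control library 4 and RANKL-treated library 1 form a shallow pair with 583663 and 613135 counts. Levels are given in CPM, the counts of a gene per 1000000 counts of its library, with TMM scaling, each mean with its SD over 4 libraries. Intervals of log2 fold changes come from the edgeR fit and include the spread between libraries. Intervals of pooled count ratios and detection limits cover counting error only, and reads copied by PCR are counted. As the reads lie at the 3′ ends of transcripts, levels were compared between conditions for each gene and not between genes.

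The labelled tissue was checked against marker genes. All 8 epithelial markers were tested, with a summed level of 7047 to 8138 CPM in control and 6706 to 7331 CPM with RANKL, and Krt18, Krt19 and Cldn7 among them were lower with RANKL. Endothelial markers summed to at most 3.44 CPM in any library, with Cdh5, Kdr, Tie1 and Cldn5 at 0 counts. Leukocyte markers summed to 5.16 to 11.1 CPM in control and 4.82 to 17.8 CPM with RANKL, with Cd3e, Cd4, Cd79a, Ms4a1 and Itgax at 0 and no marker of the 15 passing the filter. The most counts among them were those of Csf1r, 93 in control and 30 with RANKL, and Cd68, 43 and 4. Fibroblast and smooth muscle markers summed to 16.0 to 49.9 CPM and 32.3 to 46.8 CPM, with Dcn at 0 and Pdgfrb, 1 of 2 tested of 10, higher with RANKL. The other tested gene, Vim, was present in both groups and was not called (mean 18.0 and 14.7 CPM, edgeR adjusted p = 0.68). Among these lists the largest shift was that of M cell markers, genes of the epithelial cells that sample antigen, whose summed level was 136.3 to 182.0 CPM in control and 2168 to 2498 CPM with RANKL, with 8 of 8 tested genes higher and Gp2, a defining marker, at 0 in all libraries. Pdgfrb and the M cell markers Spib, Sox8, Tnfaip2 and Ccl20 passed the filter only through the RANKL-treated libraries. The counts of higher genes in these 2 lists are therefore not independent of the filter. Of 5 stem cell markers Ascl2 was higher and Lgr5, Smoc2 and Axin2 were lower, the sum being 1216 to 1629 CPM in control and 1034 to 1235 CPM with RANKL. Most of this sum is Olfm4, which was not called (mean 1162 and 1026 CPM, edgeR adjusted p = 0.22), whereas mean Lgr5 was 45.1 and 10.3 CPM. The part of these shifts in the integrin results below was not tested, and in bulk libraries fewer cells of a type and less RNA per cell cannot be told apart.

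The stretches upstream of the tested members that were higher with RANKL are shown because these genes encode the chains of 1 dimer and were both higher. They come from the RefSeq promoter windows on GRCm38.p6, which reach from 250 bases before to 50 bases after a transcript start, cut to the part that lies before the annotated gene. The Itgav stretch is chr2:83724147-83724396 on the plus strand and the Itgb6 stretch is chr2:60722644-60722853 on the minus strand, each written 5′ to 3′ on the strand of its gene, with matches to the searched motifs in capitals.
Itgav: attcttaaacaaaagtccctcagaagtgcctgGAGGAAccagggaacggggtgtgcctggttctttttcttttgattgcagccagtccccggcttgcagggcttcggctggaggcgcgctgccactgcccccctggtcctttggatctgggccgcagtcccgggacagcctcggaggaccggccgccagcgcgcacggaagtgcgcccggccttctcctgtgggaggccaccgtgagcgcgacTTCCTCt
Itgb6: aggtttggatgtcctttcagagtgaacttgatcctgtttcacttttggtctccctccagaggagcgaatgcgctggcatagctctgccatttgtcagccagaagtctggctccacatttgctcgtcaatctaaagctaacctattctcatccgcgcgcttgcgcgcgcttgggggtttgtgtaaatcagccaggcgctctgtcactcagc
Both strands were searched for GAGGAA, a core bound by ETS factors such as SPI-B, for TGANTCA, the AP-1 motif, and for the NF-κB consensus, whose letters are not spelled out here. GAGGAA lies in 28.3% of all 32851 windows of 300 bases, and the Itgav stretch holds it once on each strand, whereas the Itgb6 stretch holds none of the 3 motifs. Windows were found for 8 of the 10 members, 10 windows in all, and Itga6 and Itgb4 have none in the table. The NF-κB consensus, present in 8.46% of all windows, was matched in 1 Itga3 window, and TGANTCA, present in 7.81%, in the other Itga3 window. GAGGAA was also matched in the windows of Itgb1 and Itgb7 and in 1 of the 2 windows each of Itga3 and Itgb6. A match is a run of letters and was not tested as a binding site.

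Across all genes, 2587 of 9971 tested passed an adjusted p of 0.05 in edgeR's quasi-likelihood test, which is 25.9%, with 13.6% higher and 12.4% lower in RANKL-treated organoids. In 24.6% of tested genes the CPM of the groups did not overlap, 13.1% with all RANKL-treated libraries above and 11.5% with all below the control libraries. Of the 8 tested members 2 were higher and 2 were lower past the threshold, so that 4 of 8 were called beside 25.9% of all tested genes, a difference that was not tested. Itgb6 is among the 4 although it passed the filter only through the RANKL-treated libraries. The groups did not overlap for 4 of the 8, Itgav, Itgb6, Itga6 and Itgb4. Their median log2 fold change was 0.05, beside 0.00017 over all tested genes, with changes in both directions. The summed level of the 10 members, of which Itga6 and Itgb1 hold the most counts, was 599.7 to 651.0 CPM in control and 528.4 to 563.4 CPM with RANKL, with no overlap.

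**Figure D1:**
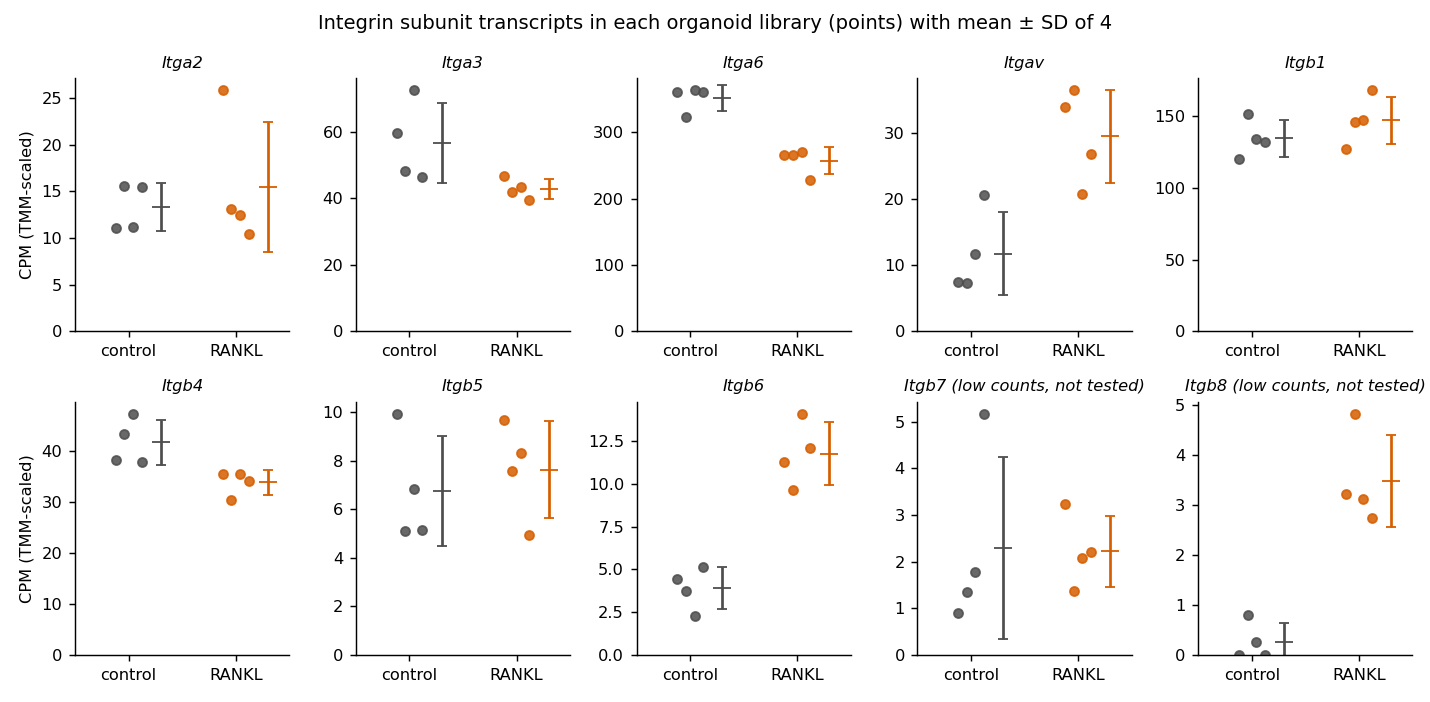
Each panel plots 1 integrin gene, with the level in CPM (TMM-scaled, linear axis from 0) of the 4 control and the 4 RANKL-treated libraries as points and the mean with SD beside them (the lower SD bar of control Itgb8 is cut at 0). Itgav, Itgb6 and Itgb8 lie higher and Itga6 and Itgb4 lower in every RANKL-treated library than in any control library, and the points of the other genes overlap between the groups.

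The αv group comprised Itgav and its β partners Itgb5, Itgb6 and Itgb8, with Itgb1 as a further partner. Itgav (chr2:83724397-83806916, plus strand, GRCm38) encodes αv, the chain that all RGD-binding dimers of this group share. Its level was 7.38, 7.25, 11.7 and 20.6 CPM in control libraries 1 to 4 and 33.9, 36.5, 20.9 and 26.9 CPM in the RANKL-treated ones. All RANKL-treated libraries were above all control libraries, but control library 4, the shallowest with 12 Itgav counts, lay just under the lowest RANKL-treated library. The mean was 11.7 ± 6.28 CPM (SD, n = 4) in control and 29.5 ± 7.06 CPM with RANKL. The log2 fold change was 1.60 (SE 0.25, 95% interval 1.10 to 2.11, edgeR adjusted p = 9.8e-06). With library depth (log2 total) as a covariate the log2 fold change was 1.03 (adjusted p = 0.0080, edgeR), still past the threshold, and without the shallow pair of libraries it was 1.68 (adjusted p = 1.2e-05, edgeR).

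Itgb6 (chr2:60598292-60722643, minus strand) encodes β6, a chain that pairs with αv and is made mainly by epithelia. Control libraries 1 to 4 held 4.46, 3.76, 2.28 and 5.16 CPM and RANKL-treated libraries 1 to 4 held 11.3, 9.64, 14.1 and 12.1 CPM. The lowest RANKL-treated library thus lay above the highest control library with a clear gap, although the counts behind these values were small, 61 over all control and 70 over all RANKL-treated libraries. The mean rose from 3.91 ± 1.23 to 11.8 ± 1.85 CPM (SD, 4 libraries each), a log2 fold change of 1.67 (SE 0.30, 95% interval 1.06 to 2.28, edgeR adjusted p = 6.8e-05). Itgb6 passed the filter on low counts only through the RANKL-treated libraries, so its entry to the test depended on the group in which it was high. With no filter its log2 fold change was 1.62 (edgeR adjusted p = 1.9e-05). Under a filter of at least 10 counts in every library Itgb6 was not tested.

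Itgb8 (chr12:119158022-119238802, minus strand) encodes β8, the other αv partner that acts on latent TGF-β. It had 0, 3, 1 and 0 counts in control libraries 1 to 4, against 2, 7, 6 and 5 counts in RANKL-treated libraries, which is 0 to 0.805 CPM against 2.75 to 4.82 CPM. Every RANKL-treated library was above every control library, at counts that did not pass the filter, so the gene has no value in the test across genes. Permuting the library labels in all 70 ways (exact two-sided test of CPM) gave p = 0.0286, the smallest that 4 against 4 libraries allow, and the ratio of pooled counts per total was 13.9 with an exact 95% interval of 4.64 to 55.8. With no filter on low counts, over 23836 genes, its log2 fold change was 3.46 (SE 0.80, edgeR adjusted p = 0.00030).

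Itgb5 (chr16:33829665-33949338, plus strand), which encodes the β chain of the vitronectin receptor αvβ5, had 9.93, 5.10, 6.84 and 5.16 CPM in control and 9.69, 7.57, 8.34 and 4.94 CPM with RANKL. The groups spanned nearly the same range. The means, 6.76 ± 2.26 and 7.64 ± 2.0 CPM (SD, 4 libraries each), differ in the other direction from the fit, which weights libraries by depth. Its log2 fold change was -0.03 (SE 0.31, edgeR adjusted p = 0.95), and the 95% interval of -0.66 to 0.60 leaves room for a change of either sign.

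The laminin receptor chains were Itga3, Itga6 and Itgb4, with Itgb1 as partner of the α chains. Itga6 (chr2:71745616-71858416, plus strand) encodes α6, which pairs with β1 or, in hemidesmosomes, with β4. Its level was 360.8, 322.5, 363.1 and 361.1 CPM in control libraries 1 to 4 and 266.4, 266.4, 269.6 and 227.4 CPM in the RANKL-treated ones. Within each group 3 libraries were close together and 1 lay lower, control library 2 and RANKL-treated library 4, and the groups did not overlap. The mean fell from 351.9 ± 19.6 to 257.4 ± 20.1 CPM (SD, 4 libraries each), a log2 fold change of -0.45 (SE 0.10, 95% interval -0.65 to -0.25, edgeR adjusted p = 0.00075), with 5679 control and 1483 RANKL counts behind it. This made Itga6 the most precisely measured of the changed members, with a fold change that stayed between -0.49 and -0.39 on the log2 scale and past the threshold in all 17 alternatives.

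Itga3 (chr11:95044474-95076801, minus strand) encodes α3, which forms the laminin receptor α3β1. It had 59.7, 48.3, 72.5 and 46.4 CPM in control and 46.8, 42.0, 43.3 and 39.5 CPM with RANKL. The groups overlapped, as RANKL-treated library 1 lay above control library 4, and control libraries spread more widely than RANKL-treated ones. The mean was 56.7 ± 12.0 against 42.9 ± 3.03 CPM (SD, 4 libraries each), and the log2 fold change of -0.47 (SE 0.15, edgeR adjusted p = 0.021) passed the threshold, whereas an exact two-sided permutation test gave p = 0.0571. The call was lost in DESeq2 (adjusted p = 0.060), with library depth (log2 total) as a covariate (adjusted p = 0.21, edgeR), and without control library 3, RANKL-treated library 2 or RANKL-treated library 4 (adjusted p = 0.080, 0.057 and 0.080, edgeR).

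Itgb4 (chr11:115974709-116008412, plus strand) encodes β4, which pairs only with α6 and carries the long cytoplasmic tail that binds plectin. Its level was 38.2, 43.2, 47.1 and 37.8 CPM in control and 35.5, 30.3, 35.5 and 34.1 CPM with RANKL. The groups did not overlap, but the gap between the lowest control and the highest RANKL-treated library was small. The mean was 41.6 ± 4.43 in control and 33.8 ± 2.46 CPM with RANKL (SD, 4 libraries each), a log2 fold change of -0.32 (SE 0.15, 95% interval -0.63 to -0.0095) that did not pass the threshold over all genes (edgeR adjusted p = 0.13) here or in any alternative. Its interval overlaps that of Itga6, its partner in α6β4.

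Itgb1 (chr8:128685654-128733200, plus strand) encodes β1, the partner of α2, α3 and α6 and an alternative partner of αv. It had 120.6, 151.9, 134.3 and 132.4 CPM in control and 127.5, 145.9, 147.6 and 168.1 CPM with RANKL, ranges that overlap over most of their width. The log2 fold change was 0.15 (SE 0.11, edgeR adjusted p = 0.37), with a 95% interval of -0.08 to 0.37.

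Itga2 (chr13:114833081-114932100, minus strand), which encodes the α chain of the collagen receptor α2β1, had 11.1, 15.6, 11.2 and 15.5 CPM in control and 25.8, 13.1, 12.5 and 10.4 CPM with RANKL. The highest value came from RANKL-treated library 1, one of the shallow pair, and rests on 16 counts, whereas the other RANKL-treated libraries lay within or near the control range. The log2 fold change was 0.13 (SE 0.26, 95% interval -0.40 to 0.65, edgeR adjusted p = 0.76), and without that library it was -0.08.

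Itgb7 (chr15:102215995-102231944, minus strand) encodes β7, the partner of α4 and αE on gut lymphocytes. It had 7, 5, 7 and 3 counts in control and 2, 2, 4 and 4 counts in RANKL-treated libraries, and was not tested across genes. At 2.29 ± 1.95 and 2.22 ± 0.763 CPM (SD, 4 libraries each) no difference was detectable at this depth, with an exact permutation p of 1.0 and a ratio of pooled counts per total of 1.51 (exact 95% interval 0.68 to 3.19), which differs in direction from the means because deep libraries weigh more in it. Its α partners were at or near 0, with 8 control and 2 RANKL counts for Itga4, and 0 and 1 for Itgae.

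**Figure D2:**
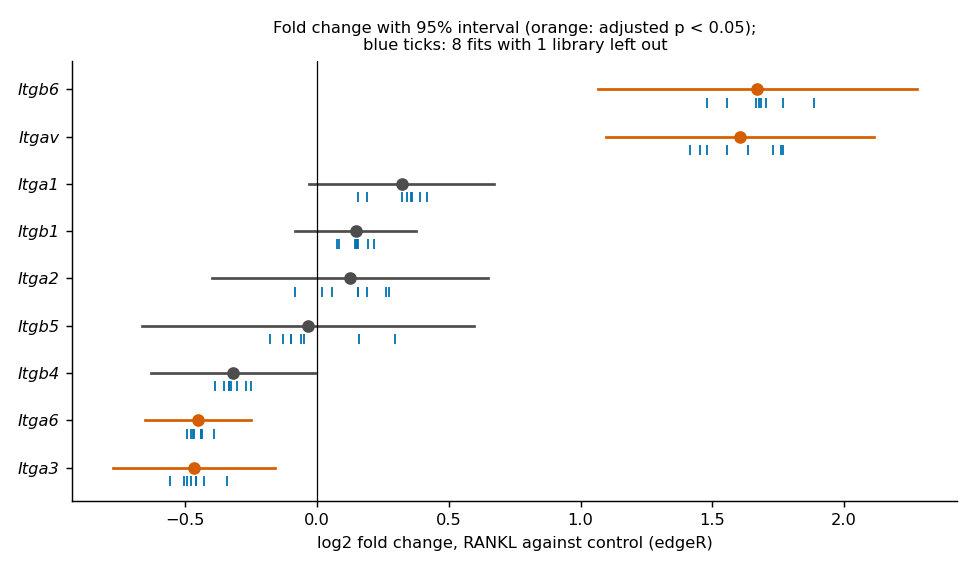
The log2 fold change of RANKL-treated against control organoids (horizontal axis) is plotted for the 8 tested members and Itga1, with 95% intervals as lines, genes past the adjusted p of 0.05 in orange, and blue ticks under each gene for the 8 fits that leave out 1 library. Itgb6 at 1.67 and Itgav at 1.60 stand apart on the right, Itga6 and Itga3 lie between -0.5 and -0.4, and the intervals of Itga1, Itgb1, Itga2 and Itgb5 cross 0.

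Of the 17 other integrin genes, 12 had a count in at least 1 library and only Itga1 passed the filter. Itga1 encodes α1, another collagen-binding partner of β1, and had 27.4, 36.0, 33.2 and 48.2 CPM in control and 35.5, 41.3, 52.2 and 34.6 CPM with RANKL. The log2 fold change was 0.32 (SE 0.17, edgeR adjusted p = 0.18). Itga8, Itgad, Itgax, Itgb2 and Itgb2l had 0 counts in all libraries, which allows up to 0.384 CPM at the greatest depth and up to 5.14 CPM at the lowest. Itgb3, whose β chain is known from osteoclasts and platelets, had 3 control counts and 1 RANKL count, and Itga5, the α chain of the fibronectin receptor, had 3 and 2. The αv partners that passed the filter were therefore Itgb1, Itgb5 and Itgb6.

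Because the chains work in pairs, the log2 ratio of the α to the β count was taken within each library, which does not depend on how libraries are scaled, with 0.5 counts added to each. Only the change of a ratio between conditions was read. For Itga6 over Itgb1 the log2 ratio was 1.58, 1.09, 1.43 and 1.44 in control and 1.06, 0.87, 0.87 and 0.44 in RANKL-treated libraries, a difference of -0.58 between the means with no overlap (exact two-sided permutation p = 0.0286). For Itgav over Itgb1 it was -4.02, -4.36, -3.51 and -2.63 in control and -1.89, -1.99, -2.81 and -2.63 in RANKL-treated libraries, a difference of 1.30 (exact permutation p = 0.0571), with control library 4 inside the RANKL range. For Itgav over Itgb6 the means were 1.44 ± 0.75 and 1.27 ± 0.57 (SD, 4 libraries each), a difference of -0.17 (exact permutation p = 0.77), so a change in their ratio was not detected at these counts.

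The other pairs showed smaller or more variable changes. The difference was -0.50 for Itga3 over Itgb1 and 1.24 for Itgav over Itgb5 (exact permutation p = 0.0857 for each), -0.16 for Itga6 over Itgb4 (exact permutation p = 0.20) and 0.02 for Itga2 over Itgb1 (exact permutation p = 0.94). Adjusted over the 7 pairs by the Benjamini-Hochberg method none passed 0.05, the lowest value being 0.15 from the exact permutation tests. With 4 against 4 libraries no exact p can fall below 0.0286, and 1 pair was below 0.05 before adjustment. The ratio of Itgav over Itgb8 was left out of this family because of the low Itgb8 counts, and its difference was -1.92.

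**Figure D3:**
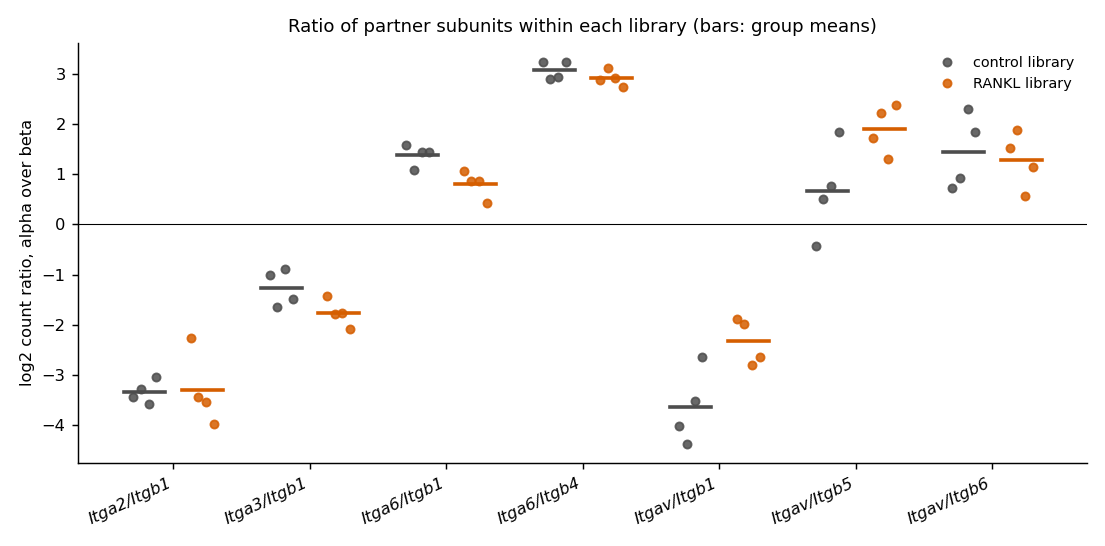
The vertical axis gives the log2 ratio of the α to the β count within a library for the 7 partner pairs, with points for the 4 control (grey) and the 4 RANKL-treated (orange) libraries and bars at the group means. Itga6/Itgb1 is the only pair whose groups do not overlap, Itgav/Itgb1 and Itgav/Itgb5 shift upwards with 1 control library inside the RANKL range, and the groups of Itgav/Itgb6 overlap over most of their range.

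Transcripts of proteins that these integrins bind were read from the same test. Of 11 laminin chain genes 3 were tested and 2 were higher with RANKL, beside 25.9% of all tested genes called, a difference that was not tested. Lamb3, the β chain of laminin-332, the preferred ligand of α3β1 and α6β4, had 19.3 to 29.2 CPM in control and 47.5 to 55.5 CPM with RANKL, with a log2 fold change of 1.13 (SE 0.16, edgeR adjusted p = 2.5e-06). Lamb3 thus lay higher in the libraries in which Itga6, an α chain of its receptors, lay lower. Lama3, the α chain of laminin-332, had 2 control counts and 1 RANKL count, and was singled out after its values were seen.

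Among 26 other matrix and cell surface ligands 8 were tested, and 5 were higher and 0 lower at an adjusted p of 0.05 in edgeR; of the remaining 3, none had an unadjusted p under 0.05. Over all tested genes 25.9% were called, and the difference was not tested. The median log2 fold change of the 8 was 1.91. Vcam1, Icam1 and Npnt passed the filter only through the RANKL-treated libraries, so the count of higher genes and the median are not independent of the filter. The log2 fold changes of the other tested genes ran from -0.21 to 1.97. Nephronectin (Npnt), an RGD protein known as a ligand of α8β1, had 4.84, 1.61, 5.58 and 5.16 CPM in control and 30.7, 32.3, 30.2 and 15.9 CPM with RANKL (log2 fold change 2.65, SE 0.29, edgeR adjusted p = 2.3e-08), while Itga8 was at 0 in all libraries. Vcam1, the ligand of α4 integrins, had 0 counts in the control group and 180 in the RANKL group, at least 166-fold higher when set against 3 counts over the whole control group, with 23.6 to 42.0 CPM with RANKL. Icam1, the ligand of β2 integrins, had 0 and 165 counts, at least 152-fold higher on the same basis. The integrins that bind these last ligands, with α4 or β2 chains, were at or near 0 in all libraries.

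Agrn and Mfge8 make up the rest of the 5 and were added after their values were seen. Agrin (Agrn), a proteoglycan of basement membranes, measured 141.0 to 202.6 CPM in control and 634.5 to 733.8 CPM with RANKL (log2 fold change 1.97, SE 0.11, edgeR adjusted p = 1.5e-15). Mfge8, a secreted RGD protein that bridges apoptotic cells to αvβ3 and αvβ5, measured 312.7 to 421.2 CPM in control and 1211 to 1475 CPM with RANKL (log2 fold change 1.84, SE 0.11, edgeR adjusted p = 2.0e-14). Cdh1, E-cadherin, which is the ligand of αEβ7 and an epithelial marker, had a log2 fold change of 0.0037 (SE 0.10, edgeR adjusted p = 0.99).

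For latent TGF-β, the substrate of αvβ6 and αvβ8, 0 of 9 genes passed the filter on low counts, so the list has no calls. Tgfb1 had 2.29, 1.07, 2.28 and 1.72 CPM in control and 6.46, 5.51, 4.69 and 3.30 CPM with RANKL, from 32 and 27 counts. The groups did not overlap (exact two-sided permutation p = 0.0286), and the ratio of pooled counts per total was 2.34 (exact 95% interval 1.35 to 4.03). Tgfb3 and Lrrc32, a cell surface carrier of latent TGF-β, had 0 counts in all libraries. Tgfb1 was singled out from the 9 genes after its values were seen, so its p-value cannot be read as a test of a change. Non-overlap of the groups was found in 24.6% of all tested genes.

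The hemidesmosome list held 6 genes, of which 3 were tested, with a median log2 fold change of 0.15, and 1, Dst, was lower, beside 25.9% of all tested genes called. Dst, a plakin gene, had 69.4, 82.6, 111.5 and 91.1 CPM in control and 61.3, 53.7, 64.1 and 42.3 CPM with RANKL (log2 fold change -0.68, SE 0.15, edgeR adjusted p = 0.0011). The counts are per gene and do not tell apart the forms of its protein, in hemidesmosomes or elsewhere. Plec, the gene of plectin, had a log2 fold change of 0.30 (edgeR adjusted p = 0.053), and Cd151, the tetraspanin that binds α3 and α6 integrins, one of 0.15 (edgeR adjusted p = 0.60). Col17a1, which encodes a transmembrane collagen of hemidesmosomes and was singled out after its values were seen, had 0 counts in all control libraries and 1, 8, 18 and 11 in RANKL-treated libraries, at least 35.1-fold higher against 3 counts over the control group, but did not pass the filter. Dst thus shared the direction of Itga6, whereas the Col17a1 counts and the log2 fold changes of Plec and Cd151, which were not called, lay the other way.

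Regulators of integrin activity were read as a list of 19 genes, of which 15 were tested, with 7 higher, 1 lower and a median log2 fold change of 0.36. Over all tested genes 25.9% were called, and the difference was not tested. Flna, a filamin that competes with talin for β tails, measured 38.6, 56.1, 57.5 and 103.2 CPM in control and 237.3, 207.2, 194.5 and 201.0 CPM with RANKL (log2 fold change 1.90, SE 0.16, edgeR adjusted p = 7.1e-11). Dok1, an adaptor that also binds β tails, was at 8.87 to 13.7 CPM and 24.8 to 37.1 CPM (log2 fold change 1.65, SE 0.20, edgeR adjusted p = 2.3e-07). Both are known as inhibitors of integrin activation, whereas Rapgef1, an exchange factor of the activator RAP1, also rose (log2 fold change 0.79, edgeR adjusted p = 0.00042).

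The talins and kindlin, which bind β tails to switch integrins on, did not share a direction. Fermt1, the epithelial kindlin, rose from 304.7 ± 27.2 to 465.4 ± 20.4 CPM (SD, 4 libraries each; log2 fold change 0.60, SE 0.10, edgeR adjusted p = 1.4e-05), Tln1 had a log2 fold change of -0.05 (edgeR adjusted p = 0.82), and Tln2 was lower at -0.42 (edgeR adjusted p = 0.023), a call lost with library depth (log2 total) as a covariate (adjusted p = 0.11, edgeR), without control library 1 or RANKL-treated library 4 (adjusted p = 0.054 and 0.17, edgeR) and without the shallow pair of libraries (adjusted p = 0.055, edgeR). Rap1b and Rasip1 were also higher past the threshold, but Rasip1 passed the filter only through the RANKL-treated libraries. Fermt1, Tln1 and these last genes were named after their values were seen.

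Focal adhesion genes couple integrins to actin and to kinases. Of 31 genes 24 were tested, 4 were higher and 2 lower, which is close to the 25.9% called over all tested genes, and the median log2 fold change was 0.08. Tns3, a tensin, rose from 37.8 ± 4.71 to 93.0 ± 6.05 CPM (SD, 4 libraries each; log2 fold change 1.24, SE 0.13, edgeR adjusted p = 4.6e-09), and the scaffold Nedd9 (0.66, edgeR adjusted p = 0.0022) and zyxin, Zyx (0.64, edgeR adjusted p = 0.0056), were higher by less, with the Zyx call lost without RANKL-treated library 2 (adjusted p = 0.080, edgeR). Git1, an adaptor of paxillin, and Vasp, an actin regulator, were lower, with log2 fold changes of -0.71 and -0.40 (edgeR adjusted p = 0.00027 and 0.0017). The kinase gene Src was the other higher gene, and the core genes Ptk2, Pxn, Vcl and Ilk had log2 fold changes from -0.21 to 0.07 (edgeR adjusted p from 0.60 to 0.87); these 5 were named after their values were seen.

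Tetraspanins and other lateral partners numbered 16, with 13 tested, 5 higher, 1 lower and a median log2 fold change of 0.32. The share called over all tested genes was 25.9%, and the difference was not tested. Cd47, the integrin-associated protein that pairs with αv integrins, measured 81.7, 88.6, 80.8 and 63.6 CPM in control and 198.6, 218.9, 203.4 and 202.7 CPM with RANKL (log2 fold change 1.34, SE 0.11, edgeR adjusted p = 3.4e-11). The tetraspanins Tspan3 (0.99, edgeR adjusted p = 7.6e-07) and Tspan14 (0.80, edgeR adjusted p = 0.00014) were higher and Tspan1 (-0.54, edgeR adjusted p = 0.0043) was lower, the Tspan1 call being lost with library depth (log2 total) as a covariate (adjusted p = 0.070, edgeR). Of 18 matrix proteases and inhibitors 7 were tested, with 1 higher, 1 lower and a median log2 fold change of 0.07, close to the same share of 25.9%. The membrane protease Mmp15 measured 38.8 ± 4.1 CPM in control and 94.3 ± 8.31 CPM with RANKL (SD, 4 libraries each; log2 fold change 1.25, SE 0.13, edgeR adjusted p = 3.4e-09), and Adam15, a membrane protein of the disintegrin and metalloprotease family, was at 111.7 ± 20.9 and 55.4 ± 12.1 CPM (log2 fold change -1.04, SE 0.15, edgeR adjusted p = 4.8e-06).

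**Figure D4:**
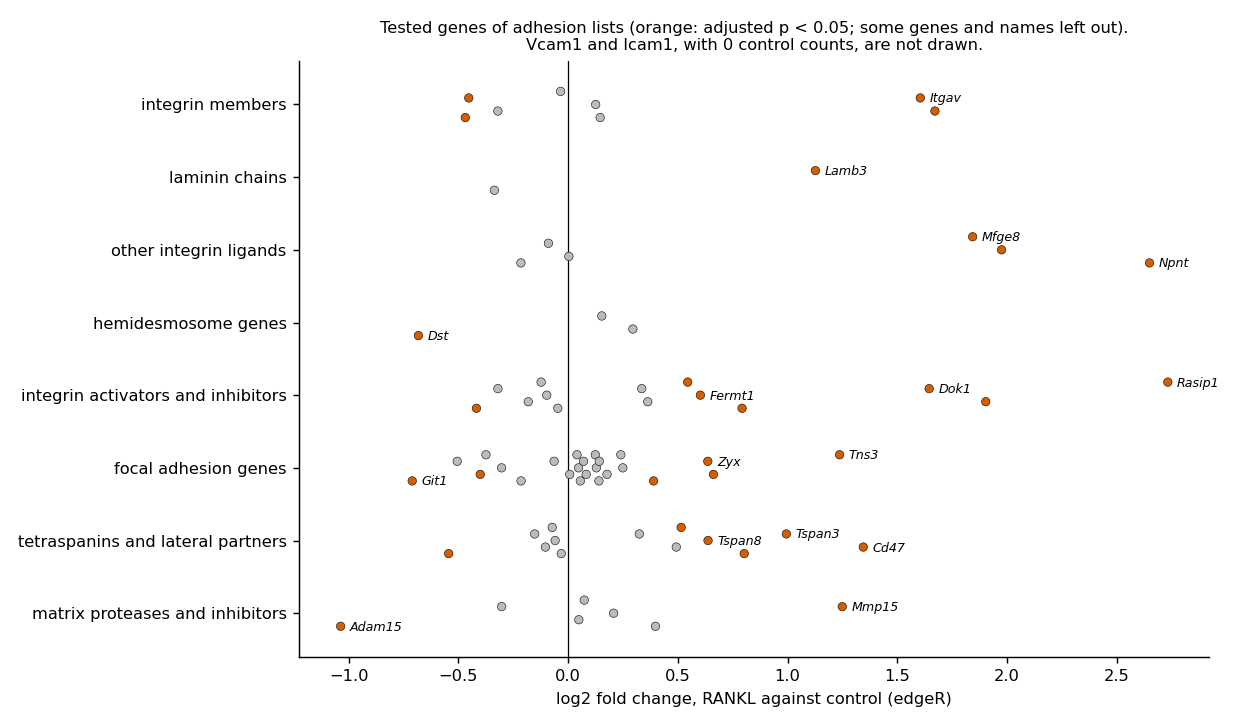
Each point is a tested gene of 1 adhesion list, placed by its log2 fold change of RANKL-treated against control organoids (horizontal axis) and spread vertically only to be visible, with genes past the adjusted p of 0.05 in orange. Itgav and Itgb6 lie at 1.60 and 1.67, further to the right than any focal adhesion gene, tetraspanin or lateral partner, the ligand genes Mfge8, Agrn and Npnt lie further right still, Vcam1 and Icam1 are left out because they had 0 control counts, and some genes that are not reported here are not drawn.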

How the data were processed

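The deposited values are raw counts per gene in 8 libraries, 4 control and 4 RANKL-treated, made with a 3′ mRNA kit and sequenced as single reads. Before deposit the authors used BBDuk for trimming and bowtie2 against abundant sequences, then aligned to GRCm38 (mm10 per the labels) with STAR and counted on Ensembl genes with featureCounts in a strand-specific way, so that genes antisense to Itgav and Itgb4 are counted apart; their tests used DESeq2. A 3′ count does not scale with gene length, and a change in the site of polyadenylation could move it. Symbols were matched for 54409 of 54532 genes, and the rest held 0.0193% of the counts. Positions come from GENCODE M21.

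The members, lists and tests were chosen with earlier results of these data known. The lists cover adhesion genes and markers of epithelial, leukocyte, fibroblast and smooth muscle, endothelial, M and stem cells. edgeR 4.0.16 (R 4.3.3) was run on all genes with TMM factors, its filter on low counts, quasi-likelihood tests between the conditions and Benjamini-Hochberg adjustment over the 9971 genes tested, with a threshold of 0.05. A standard error is the fold change divided by the root of F. Named genes were the members, other integrins past the filter, and up to 3 rises and 3 falls per list that passed the threshold and averaged 5 CPM or more; others are marked in the text. Some genes are not reported here, and counts over lists include them. Exact permutation tests used CPM or the ratio of partner counts, and ratios of pooled counts have exact binomial intervals. Alternatives were DESeq2 1.42.0 or its size factors, library totals alone, limma-voom (limma 3.58.1), no filter, 10 counts or more in every library, a replicate block, library depth (log2 total) as a covariate, and libraries left out. On counts simulated from these libraries, edgeR recovered 42 of 65 genes changed 1.5-fold, 53 of 64 changed 2-fold and 57 of 58 changed 4-fold among 9830 tested, with 5 false calls. The simulation changed a much smaller share of genes than was called in the data. Its recovery rates therefore do not measure the power of the real comparison. Libraries of 1 condition differed by more than counting noise (chi-square per degree of freedom 1.29 to 13.1 over 12 pairs), and none were merged. The highest values, 13.1 and 8.75, were those of control library 3 with control libraries 1 and 2, beside 4.02 between control libraries 1 and 2.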

Additional observations from a re-analysis of the deposited data

Results flagged for a closer look

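For 37 named genes, the highest and lowest library of each group of 4 were compared with the others by the gap to the nearest library over the range of the group. Of 74 groups 6 held a library that stood apart in this way, and chance gives about 1 in 20, or 3.7. Itga6 was flagged in both groups: control library 2 held 322.5 CPM, with the next lowest at 360.8 CPM, and RANKL-treated library 4 held 227.4 CPM, with the next at 266.4 CPM. Both are the lowest of their groups, and the groups still do not overlap. RANKL-treated library 4 was also the low one for Npnt, with 15.9 CPM against the next at 30.2 CPM, and for Adam15, with 37.3 CPM against 59.9 CPM. RANKL-treated library 2 was low for Dok1, with 24.8 CPM against 35.5 CPM, and control library 4 was low for Mmp15, with 32.7 CPM against 40.4 CPM. Leaving out any of these libraries did not change the call of the gene flagged in it.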

How the results depend on the processing

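Over the alternatives, 120 of 133 values of the tested members and 408 of 420 of the other named genes kept their direction and their side of the threshold. The calls of Itgav, Itgb6 and Itga6 held in every alternative that tested them, with log2 fold changes of 1.03 to 1.77, 1.48 to 1.89 and -0.49 to -0.39. The count of members higher was 1 under at least 10 counts in every library, where Itgb6 was not tested, and 3 with no filter, which adds Itgb8. The count of members lower was 1 in DESeq2 and with library depth as a covariate, and 1 to 2 with 1 library left out, as Itga3 lost its call. Members that were never called changed sign: Itga2 was at -0.25 with the covariate, -0.054 without the shallow pair of libraries and -0.083 to 0.27 with 1 library left out, and Itgb5 was at 0.029 in DESeq2, 0.39 with the covariate and -0.18 to 0.29 with 1 library left out. The cause was not tested. All called genes numbered 1827 (covariate) to 2610, and 2053 in DESeq2. The labels number replicates alike in both groups, but deviations of same-numbered libraries correlated at -0.008, -0.034, 0.104 and 0.035, and 2 of 4 control libraries correlated best with their own number, so the numbers were not read as pairs. The replicate block gave 2610 called genes, 2 members higher and 2 lower, changed no member's call, and moved Itgb5 to 0.25. Depth limits Itgb7 and Itgb8, which did not pass the filter, and Itga2, Itgb5 and Itgb6 were not tested under at least 10 counts in every library.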
